A study of Mus musculus with 3 samples.

Results

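The clustered histone genes are the genes for the linker histone H1 and the core histones H2A, H2B, H3 and H4 whose symbols begin with Hist and a cluster number, and they were taken as every gene of the deposited table whose symbol has that form. They are 67 of the 23421 genes listed, namely 6 H1, 18 H2A, 18 H2B, 12 H3 and 13 H4 genes. RNA was sequenced from the embryo proper of mouse embryos of strain 129/SvEv at embryonic day (E) 6.5, all from matings of tw18/+ mice. One library each was made of wild type, tw18/+ and tw18/tw18 embryos, and the number of embryos behind a library is not given in the sources used here. The tw18 allele is a deletion on Chr 17 of a t haplotype, carried on 1 chromosome in tw18/+ and on both in tw18/tw18, and it includes *Ppp2r1a*, the scaffold subunit of protein phosphatase 2A. The tissue label is epiblast, while the study's methods describe epiblast with its surrounding visceral endoderm. Among embryos stained for single mRNAs at this stage, the paper describes the tw18/tw18 ones as slightly younger. It also proposes that genetic backgrounds which were not inbred might explain variable severity between embryos. Whether either holds for the embryos of these libraries was not tested.

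Histones are the proteins around which DNA is wound. Most clustered histone genes are replication-dependent: they are transcribed in S phase, when new DNA must be packed, and their mRNAs end not in a poly(A) tail but in a short RNA hairpin, which the stem-loop binding protein SLBP holds and which carries the signal for their processing and rapid decay after S phase. The epiblast at this stage is among the fastest dividing tissues of the mouse. Libraries primed with random hexamers on total RNA, as here, can record mRNAs without a tail.

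The hairpin was searched by its consensus, with some stem and loop bases left free, in the annotated transcripts (GENCODE M21, GRCm38, the same build as mm10). It was found in 42 of the 67 clustered histone genes (62.7%) and in 10 of 55274 other genes (0.0181%). Transcripts of the 42 genes with a match had a median length of 620.5 bp and those of the 25 genes without one 411 bp, and no match says only that these letters are not in the annotated transcript. In the 39 genes where the hairpin could be placed after the stop codon it began 21 to 58 bases downstream, with a median of 32. The 5 forms that occurred follow, 5′ to 3′ as DNA, each with a gene that carries it and the hairpin in capitals. They are printed because the hairpin is what the members share at the level of RNA.
Hist1h1e, chr13:23621777-23621802, minus strand: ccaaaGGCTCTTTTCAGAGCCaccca
Hist1h2bb, chr13:23747198-23747223, plus strand: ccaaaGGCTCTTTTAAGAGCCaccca
Hist2h2ac, chr3:96220413-96220438, minus strand: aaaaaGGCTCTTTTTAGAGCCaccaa
Hist1h4d, chr13:23581945-23581970, plus strand: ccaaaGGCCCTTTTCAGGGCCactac
Hist2h4, chr3:96262934-96262959, minus strand: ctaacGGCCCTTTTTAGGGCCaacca

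The form of *Hist1h1e* was the most frequent, in 26 genes, and the form of *Hist1h2bb* was in 6. The form of *Hist2h2ac* was in that gene alone. All 9 H4 genes with a match had a stem beginning GGCCC, 7 in the form of *Hist1h4d* and 2 in that of *Hist2h4*. All 33 H1, H2A, H2B and H3 genes with a match had a stem beginning GGCTC. The bases just 5′ of the hairpin were mostly A and C in these examples.

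The promoters differed by histone type as well. RefSeq windows from 250 bases before to 50 after the start (GRCm38.p6) were at hand for 61 members, 62 windows in all. For 4 motifs both strands were searched, and a match is a description and not a known site. CCAAT was in all 50 windows of H1, H2A, H2B and H3 genes and in 3 of 12 of H4 genes, against 37.4% of all 32851 windows in the table. GGTCCG, an element known from H4 promoters, was in 11 of the 12 H4 windows, in 1 of 16 of H2B and in 1 of 10 of H3 genes, against 8.25% of all windows. The octamer ATTTGCAT, the recognition sequence of Oct factors, was in 7 of 18 H2A and 7 of 16 H2B windows and in no H1, H3 or H4 window, against 1.74% of all. TATAAA was in 35 of the 62 windows (56.5%), against 13.6% of all. The windows below are those of the most abundant member (*Hist1h4d*), of the H4 gene with the lowest ratio among those at 10 FPKM or more (*Hist1h4k*), of an abundant H2B gene with a low ratio (*Hist1h2bb*) and of a divergent H2A and H2B pair with opposite differences (*Hist1h2aa*, whose window reaches into the promoter of *Hist1h2ba* on the other strand). Capitals mark matches to the motifs on either strand.
Hist1h4d, chr13:23581318-23581617, plus strand: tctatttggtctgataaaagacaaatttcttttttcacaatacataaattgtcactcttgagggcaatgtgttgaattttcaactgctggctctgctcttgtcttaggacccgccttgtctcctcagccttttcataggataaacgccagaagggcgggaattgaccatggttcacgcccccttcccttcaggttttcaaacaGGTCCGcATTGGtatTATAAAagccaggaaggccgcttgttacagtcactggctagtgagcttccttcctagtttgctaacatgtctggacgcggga
Hist1h4k, chr13:21750504-21750803, minus strand: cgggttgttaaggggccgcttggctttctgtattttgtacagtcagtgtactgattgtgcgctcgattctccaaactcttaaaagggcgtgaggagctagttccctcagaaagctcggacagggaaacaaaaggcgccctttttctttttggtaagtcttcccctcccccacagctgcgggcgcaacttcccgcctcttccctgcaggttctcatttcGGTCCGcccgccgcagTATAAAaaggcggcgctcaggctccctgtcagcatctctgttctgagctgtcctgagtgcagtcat
Hist1h2bb, chr13:23746484-23746783, plus strand: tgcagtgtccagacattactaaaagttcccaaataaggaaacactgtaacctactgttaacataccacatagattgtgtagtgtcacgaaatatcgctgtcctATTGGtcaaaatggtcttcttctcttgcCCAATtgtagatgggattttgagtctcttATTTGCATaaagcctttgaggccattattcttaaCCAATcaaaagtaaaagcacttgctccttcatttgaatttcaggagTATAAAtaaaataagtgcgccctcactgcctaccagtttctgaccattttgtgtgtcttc
Hist1h2aa, chr13:23934187-23934486, plus strand: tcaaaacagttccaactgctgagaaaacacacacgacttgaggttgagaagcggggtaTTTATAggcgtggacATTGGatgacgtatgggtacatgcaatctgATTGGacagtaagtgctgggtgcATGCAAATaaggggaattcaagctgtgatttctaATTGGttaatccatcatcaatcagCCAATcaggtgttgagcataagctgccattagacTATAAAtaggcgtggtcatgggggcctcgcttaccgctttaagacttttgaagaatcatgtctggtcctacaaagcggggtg

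The values are FPKM, fragment numbers per unit of transcript length and of library size, so levels of different genes are compared here per length. *Ppp2r1a*, which lies in the deletion, descended with the labels, at 146 FPKM in wild type, 81.7 in tw18/+ and 12.8 in tw18/tw18. The value in tw18/tw18 was not 0, although the deletion is on both chromosomes there. Where that remainder comes from was not tested. The spacing of the lowest values gives the FPKM of a single fragment, and it puts the depth of the tw18/+ library at 1.40 times and of the tw18/tw18 library at 1.39 times that of wild type. The FPKM of all genes summed to 444064 in wild type, 455078 in tw18/+ and 383409 in tw18/tw18, so a share of the library sum is given beside each main level. *Lars2* was the highest gene of wild type (11199 FPKM) and of tw18/+ (9689 FPKM) and was listed at 0 in tw18/tw18. With 1 library per genotype there is no spread between samples and no test, and every difference below is one between 3 libraries. In RNA from whole tissue, fewer cells of a type and less RNA per cell cannot be told apart.

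The clustered histone genes together were highest in wild type, intermediate in tw18/+ and lowest in tw18/tw18. Their summed FPKM was 2727 in wild type, 2331 in tw18/+ and 1575 in tw18/tw18, which is 0.614%, 0.512% and 0.411% of the library sum. The tw18/tw18 sum was 0.578 of the wild type sum and 0.676 of the tw18/+ sum, and the tw18/+ sum was 0.855 of wild type. For comparison, the FPKM sum over all genes in tw18/tw18 was 0.863 of that in wild type. Scaled to equal library sums, the ratio of tw18/tw18 to wild type was 0.669. Of the 67 genes, 58 reached 1 FPKM in at least 1 library, 53 did so in all 3, and 41 reached 10 FPKM in at least 1.

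All 5 histone types had this order. The H4 genes held the largest part of the signal, with 1121 FPKM in wild type, 1033 in tw18/+ and 642 in tw18/tw18, although they are fewer than the H2A or the H2B genes. The 6 H1 genes summed to 537 FPKM in wild type, 484 in tw18/+ and 342 in tw18/tw18. H2B summed to 471, 389 and 270.0 FPKM in the same order. H3 genes gave 418 FPKM in wild type, 291 in tw18/+ and 227 in tw18/tw18. H2A was lowest throughout, at 180 FPKM in wild type, 133 in tw18/+ and 94.96 in tw18/tw18. The ratio of tw18/tw18 to wild type lay between 0.526 for H2A and 0.637 for H1, a narrower range than that of tw18/+ to wild type, which ran from 0.698 for H3 to 0.922 for H4. The make-up of the pool by type was therefore similar in the 3 libraries: H4 made up 41.1%, 44.3% and 40.7% of the summed FPKM in wild type, tw18/+ and tw18/tw18, and H1 19.7%, 20.8% and 21.7%, while H3 ranged from 12.5% in tw18/+ to 15.3% in wild type.

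**Figure D1:**
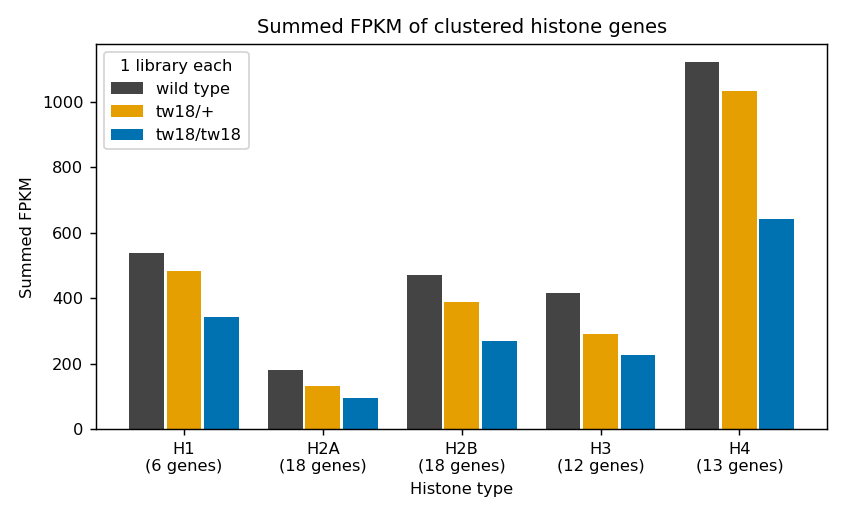
Summed FPKM (vertical axis) of the clustered histone genes of each type (horizontal axis) in wild type, tw18/+ and tw18/tw18, 1 library each, so the bars have no error bars. In each type the wild type bar is the tallest and the tw18/tw18 bar the shortest, with H4 at 1121 FPKM in wild type and 642 in tw18/tw18.

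The clusters behaved alike in sum. Hist1 on Chr 13 holds 53 of the genes in 3 blocks, at 21715763 to 21833507 (17 genes), 22035164 to 22043676 (5 genes) and 23531050 to 23934851 (31 genes). Its sum was 1906 FPKM in wild type, 1610 in tw18/+ and 1109.5 in tw18/tw18, and the ratios of tw18/tw18 to wild type were 0.546, 0.567 and 0.593 in the 3 blocks. Hist2 on Chr 3, with 10 genes, summed to 764, 665 and 435 FPKM, a ratio of 0.569. The 3 genes of Hist3 on Chr 11 summed to 35.5 FPKM in wild type, 37.4 in tw18/+ and 20.7 in tw18/tw18, and were the exception in that tw18/+ was highest. *Hist4h4*, the only member of Hist4 (Chr 6), had 20.4, 19.1 and 9.98 FPKM. None of the clusters lies on Chr 17, which carries the tw18 deletion.

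A gene was called lower or higher when its log2 ratio was at least 1 in size and the higher of its values was at least 1 FPKM. In tw18/tw18 against wild type, 23 of the 58 members tested were called lower, where 6.94% of the 12917 genes tested were. Many ratios lay near the threshold. Of the 16 called lower among the 41 members at 10 FPKM or more, 6 fell short of it with libraries scaled to equal FPKM sums. The count over all members under that scaling is in the last section. Only 2 members were called higher (*Hist1h2ba* and *Hist1h2bp*), where 15.1% of all genes tested were. Counting differences of any size, 54 of the 58 were lower, against 50.4% of all genes tested, and the other 4 were *Hist1h2ba*, *Hist1h2bp*, *Hist1h2ae* and *Hist3h2bb-ps*. The median log2 ratio was -0.84 over the 58 members and -0.02 over all genes compared. Among genes at 10 FPKM or more in a library, all 41 members were lower in tw18/tw18 than in wild type, against 4211 of 7048 genes (59.7%), with a median of -0.83 for the members and -0.12 for all such genes.

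Between tw18/+ and wild type the differences were smaller. Here 4 of 58 members were called lower (*Hist1h4k*, *Hist1h2ao*, *Hist1h2bk* and *Hist1h2ba*), against 5.02% of 12426 genes, and 2 were called higher (*Hist1h2bp* and *Hist1h4j*), against 4.70%. With libraries scaled to equal FPKM sums, 4 were called lower and 1 higher. On the deposited scale the counts called were thus near the background, while the direction was mostly shared. Of the 58 members 45 were lower, against 49.5% of all genes. Of the 41 members at 10 FPKM or more 35 were lower, against 47.7% of all genes at that level. The median log2 ratio over the 58 members was -0.38, and over all genes compared it was 0.002. In tw18/tw18 against tw18/+, 9 members were called lower (against 5.65% of 12846 genes) and 2 higher (*Hist1h2bk* and *Hist1h2ba*, against 14.9%). With equal FPKM sums 5 were called lower and 2 higher. Shares of all genes called are given for the deposited scale only, so counts called with equal sums have no background beside them. Of the 58 members tested 49 were lower, against 49.7% of all genes, with a median log2 ratio of -0.52. These comparisons share libraries pairwise, so they are not independent of each other. The share of all genes called in more than 1 comparison is not given here, so members named for this have no background beside them. Taking the libraries side by side, 31 of the 41 members at 10 FPKM or more descended from wild type over tw18/+ to tw18/tw18. In 37 of the 41 tw18/tw18 was lowest, and in the other 4 tw18/+ was. With equal FPKM sums 26 descended and tw18/tw18 was lowest in 32. The order of the 3 libraries was not counted over all genes. On the deposited scale, 59.7% of all genes at 10 FPKM or more were lower in tw18/tw18 than in wild type. In tw18/tw18 against tw18/+ it was 60.2%.

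**Figure D2:**
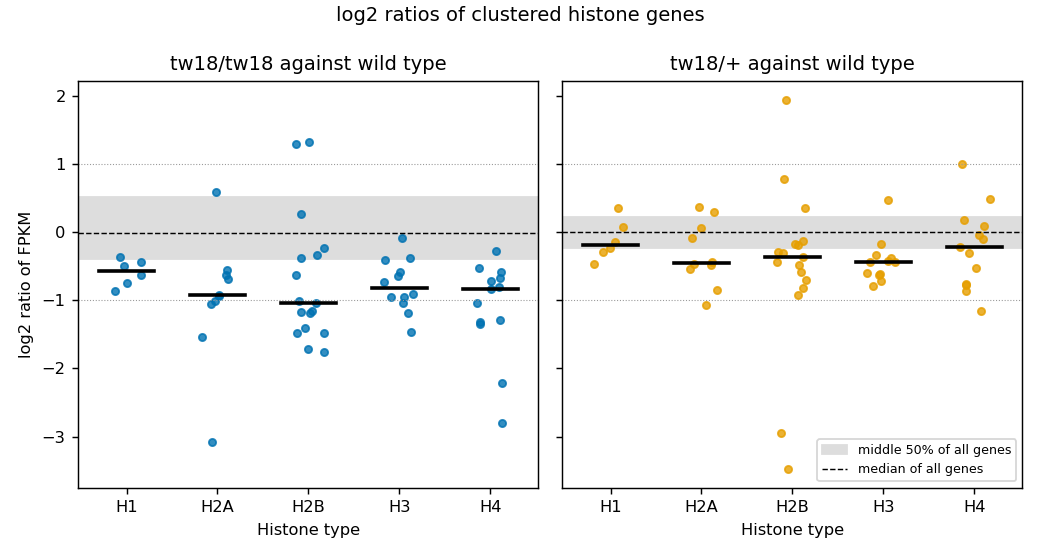
Log2 ratio of FPKM (vertical axis) of each clustered histone gene with at least 1 FPKM in either library, by histone type, for tw18/tw18 against wild type (left) and tw18/+ against wild type (right); thick bars are medians, the dashed line is the median of all genes, the grey band their middle 50% and dotted lines the threshold of 1. Most points lie below the dashed line in both panels, and 23 on the left are at or under -1.

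By type, the calls in tw18/tw18 against wild type were unequal. No H1 gene of 6 was called lower, 4 of 10 H2A genes tested were, 10 of 17 H2B, 3 of 12 H3 and 6 of 13 H4, beside 6.94% of all genes tested. The median log2 ratio was -0.56 for H1, -0.92 for H2A, -1.04 for H2B, -0.82 for H3 and -0.83 for H4. All 6 H1, all 12 H3 and all 13 H4 genes had lower values, beside 50.4% of all genes tested, and the 4 higher genes were 1 H2A and 3 H2B. These are descriptions of lists of 6 to 17 genes, and differences between the types were not tested.

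The H4 protein, which pairs with H3 at the core of the nucleosome, was encoded by the 2 most abundant members. *Hist1h4d* (ENSMUSG00000061482.7, chr13:23581598-23582735, plus strand, 1 exon) had 395 FPKM in wild type, 385 in tw18/+ and 240.0 in tw18/tw18, a log2 ratio of -0.72 to wild type. *Hist2h4* (chr3:96261682-96263311, minus strand, 1 exon) had 266, 283 and 150 FPKM, a log2 ratio of -0.83. *Hist1h4a* followed with 157 FPKM in wild type, 128 in tw18/+ and 89.9 in tw18/tw18. In the top pair wild type and tw18/+ were close to each other, and only tw18/tw18 stood apart.

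Among the H4 genes between 10 and 60 FPKM the order of the libraries varied more. *Hist1h4c* had 57.1 FPKM in wild type and near-equal values in tw18/+ (39.56) and tw18/tw18 (39.62). *Hist1h4f* was highest in tw18/+, with 36.0, 40.9 and 24.1 FPKM in wild type, tw18/+ and tw18/tw18. *Hist1h4b* had the same shape, with 30.2, 42.2 and 25.1 FPKM. These 3 genes lie in the third block of Hist1. A steeper descent was seen in *Hist1h4m*, with 41.8 FPKM in wild type, 23.0 in tw18/+ and 17.1 in tw18/tw18 (log2 ratio of tw18/tw18 to wild type -1.29). *Hist1h4h* had 40.1, 23.4 and 15.8 FPKM (-1.34). *Hist1h4n* had 26.7, 15.8 and 10.7 FPKM (-1.32). All 3 were called lower in tw18/tw18 but not in tw18/+. *Hist1h4i* had 21.7, 18.6 and 13.7 FPKM (-0.66).

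*Hist1h4k* had the lowest log2 ratio of the H4 genes at 10 FPKM or more. It had 27.2 FPKM in wild type, 12.1 in tw18/+ and 5.85 in tw18/tw18, with log2 ratios to wild type of -1.16 and -2.21. It was the only member of the 67 called lower in all 3 comparisons. Its values stand for about 153, 95.7 and 45.9 fragments, and the 95% interval of the tw18/tw18 ratio from counting alone was -2.72 to -1.72. Of its sequence in words of 50 bp, 71.5% also occurs in other genes. *Hist1h4j*, its neighbour in the first block, had 1.16, 2.33 and 0.167 FPKM, and the last of these stands for about 1.36 fragments, so its counting interval of -8.77 to -0.32 is wide.

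Linker histone H1 binds where DNA enters and leaves the nucleosome, and its genes shared between 0% and 32.0% of their 50 bp words with other genes. *Hist1h1b* (H1.5) had 171 FPKM in wild type, 180.0 in tw18/+ and 102 in tw18/tw18, with none of its 50 bp words in another gene. *Hist1h1e* (H1.4) had 149, 127 and 96.0 FPKM, with 32.0% of its words shared, and it overlaps *Hist1h2be* in the annotation. *Hist1h1a* (H1.1) had 98.3, 80.7 and 54.3 FPKM, the lowest log2 ratio of the type at -0.86, again with no shared words. Its 95% counting interval was -0.99 to -0.72. *Hist1h1c* (H1.2) had 73.5 FPKM in wild type and about the same in tw18/+ (53.4) and tw18/tw18 (54.1), and *Hist1h1d* (H1.3) varied least, with 40.0, 36.1 and 31.2 FPKM and a log2 ratio of -0.36. *Hist1h1t*, the testis form, which falls outside the rule for named genes and was picked after its values were seen, was at 5.72, 7.34 and 4.06 FPKM.

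H3 carries the N-terminal tail on which many chromatin marks are set. *Hist2h3b* was highest, with 89.3 FPKM in wild type, 51.9 in tw18/+ and 39.5 in tw18/tw18 (log2 ratio of tw18/tw18 to wild type -1.18). *Hist1h3g* had 82.4, 54.0 and 40.0 FPKM (-1.04). *Hist1h3d*, in the third block, had 17.4, 13.4 and 6.34 FPKM (-1.46). These were the 3 H3 genes called lower in tw18/tw18. *Hist2h3c2* had 51.3, 33.9 and 27.3 FPKM, and *Hist2h3c1*, whose sequence is wholly shared with other genes, 28.2, 18.3 and 14.6. *Hist1h3i* had 45.3, 35.9 and 27.4 FPKM. The other H3 genes at 10 FPKM or more were *Hist1h3h* (30.7, 27.2 and 20.5), *Hist1h3a* (27.9, 20.6 and 17.97) and *Hist1h3f* (25.2, 18.8 and 19.1 FPKM). All 9 H3 genes at this level were lower in tw18/+ than in wild type too, with log2 ratios from -0.78 to -0.18.

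In tw18/tw18 against wild type, H2B had the most genes called lower and the most with higher values (3 of 17). *Hist2h2bb* was by far its most abundant gene, with 223 FPKM in wild type, 198 in tw18/+ and 144 in tw18/tw18, a log2 ratio of -0.63. *Hist1h2bb* had 85.1, 62.8 and 32.0 FPKM, a log2 ratio of -1.41 with a 95% counting interval of -1.62 to -1.21. *Hist1h2bg* had 34.4, 18.1 and 17.0 FPKM (-1.01), so that tw18/+ and tw18/tw18 were close to each other. *Hist1h2bc* was lowest in tw18/+, with 21.7, 13.3 and 16.8 FPKM. *Hist1h2bn*, named here after its values were seen, differed little, with 17.5, 16.1 and 13.8 FPKM. The following 3 H2B genes were called lower in tw18/tw18 against both other libraries. *Hist1h2bh* had 14.8 FPKM in wild type, 13.1 in tw18/+ and 4.52 in tw18/tw18 (-1.71 to wild type). *Hist1h2be* had 14.7, 9.77 and 4.35 FPKM (-1.75), and *Hist3h2ba* 13.2, 16.9 and 5.89 FPKM (-1.16).

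The H2A genes included most of the members listed at or near 0. *Hist2h2aa1* had 51.1 FPKM in wild type, 38.0 in tw18/+ and 31.9 in tw18/tw18, and *Hist2h2ac* 52.5, 37.9 and 26.2. The copy *Hist2h2aa2*, all of whose 50 bp words occur in another gene, was listed at 0 in the 3 libraries. *Hist1h2ad* (67.1% shared) and *Hist1h2ap* (93.1% shared) were also listed at 0 throughout. Of the 9 members under 1 FPKM in every library 8 were H2A genes, and 7 of the 9 shared at least 50% of their sequence with other genes, against 24 of the 58 members at 1 FPKM or more. Each of the 18 H2A genes also overlaps another annotated gene. How fragments from near-identical copies are divided can set such values, so a 0 here does not show that a copy is silent. *Hist2h2ab* had 3.32, 4.09 and 1.59 FPKM and was called lower in tw18/tw18 against both other libraries.

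**Figure D3:**
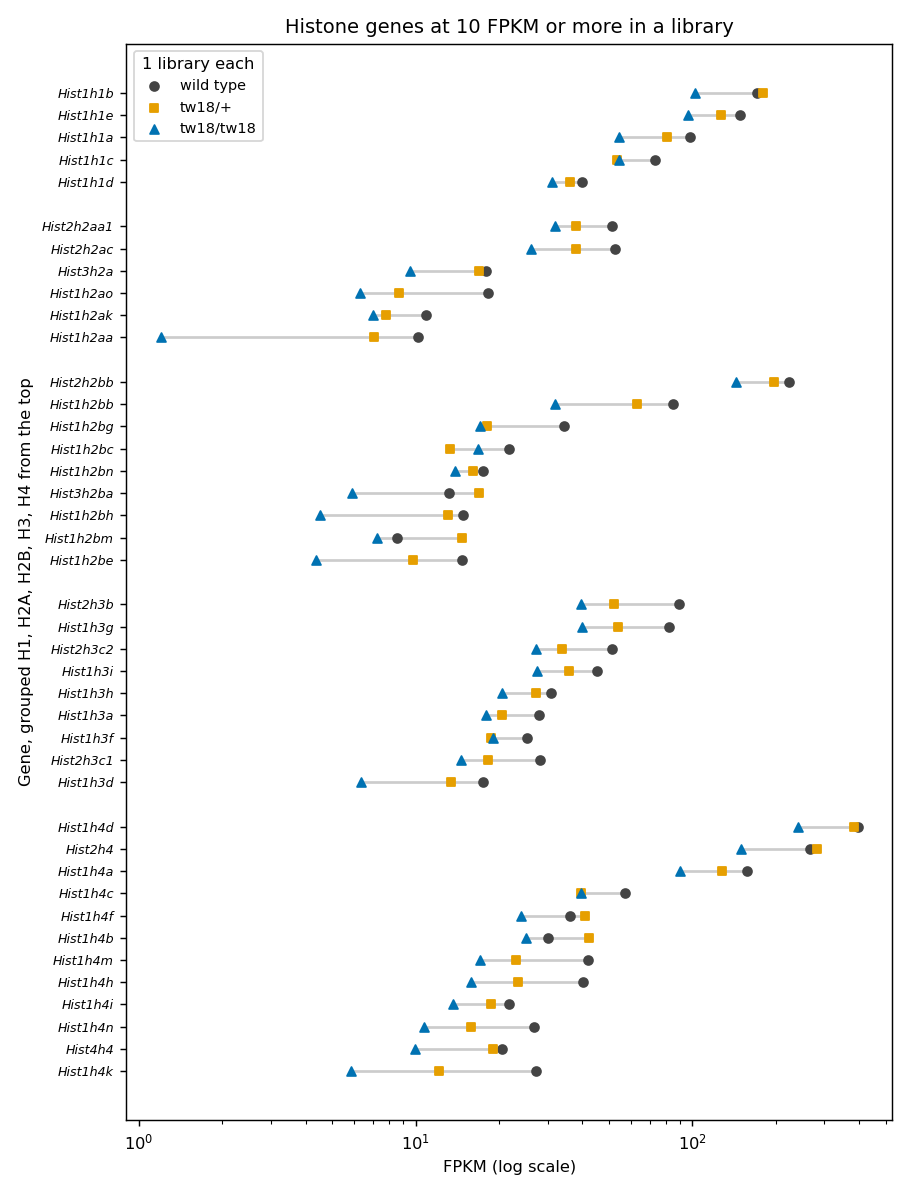
FPKM on a log scale (horizontal axis) of the 41 clustered histone genes at 10 FPKM or more in a library, grouped by type from H1 at the top to H4 at the bottom (vertical axis), with 1 point for each of the 3 libraries. The tw18/tw18 point is the leftmost of its row in 37 of the 41 genes, and *Hist1h2aa* has the widest gap.

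The testis-type pair *Hist1h2aa* and *Hist1h2ba*, whose products are best known from the male germ line, differed in opposite directions. They lie at the end of the third Hist1 block and start 305 bp apart on opposite strands, over the promoter printed above. *Hist1h2aa* had 10.2 FPKM in wild type, 7.05 in tw18/+ and 1.20 in tw18/tw18, about 67.3, 64.8 and 11.0 fragments, and its log2 ratio of -3.08 to wild type (95% counting interval -4.15 to -2.15) was the lowest of the 67. *Hist1h2ba* had 1.51, 0.135 and 3.80 FPKM, about 9, 1.12 and 31.5 fragments, and was the only member called higher in tw18/tw18 against both other libraries. Its log2 ratio to wild type was 1.33, with a counting interval of 0.26 to 2.61. Only 2.35% of the words of *Hist1h2aa* occur in other genes, and 38.2% of those of *Hist1h2ba*.

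Partners of divergent pairs were often at different levels. There are 13 pairs of members that start less than 1000 bp apart on opposite strands, 12 of them an H2A with an H2B gene. In wild type *Hist2h2ac* had 52.5 FPKM and its partner *Hist2h2be* 0.443, and *Hist1h2bg* had 34.4 FPKM and its partner *Hist1h2ae* 1.03. *Hist1h2bc* had 21.7 FPKM and *Hist1h2ac* 0.465. The lower partner is the H2A gene in the latter pairs and the H2B gene in the first. *Hist2h2be* has a RefSeq length of 2667 bp against 468 bp for *Hist2h2ac*, which widens the gap per length. Their wild type values stand for about 16.3 and 340 fragments. *Hist1h2ae* and *Hist1h2ac* rest on about 7.93 and 3.13 fragments, and the division of fragments between H2A copies can set such values. In the pair of *Hist1h2bq* (9.73, 7.90 and 4.75 FPKM) and *Hist1h2ao* (18.2, 8.68 and 6.29 FPKM) both were called lower in tw18/tw18 against wild type, and *Hist1h2ao* alone in tw18/+. In the pair of *Hist1h2bh* and *Hist1h3f*, 659 bp apart, the log2 ratio of tw18/tw18 to wild type was -1.71 for the former and -0.40 for the latter. The genes named in this paragraph that are not among the 30 most abundant were chosen after their values were seen.

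**Figure D4:**
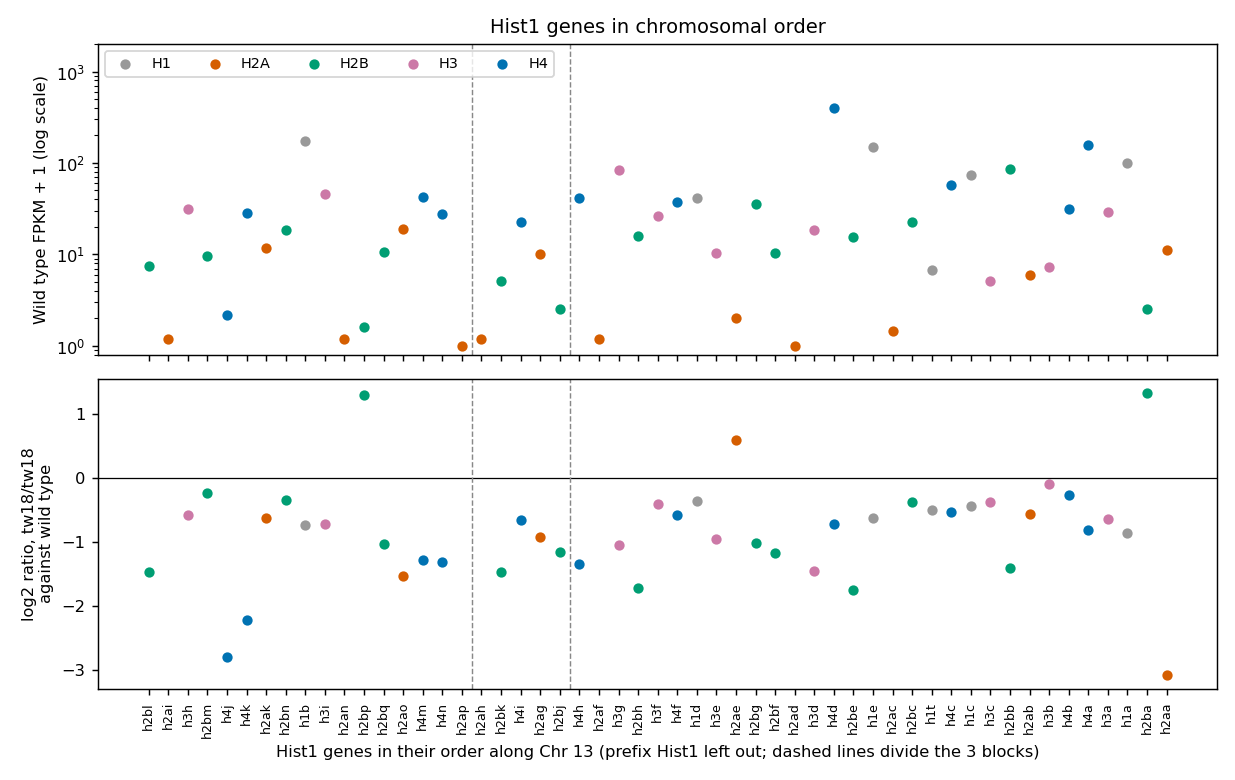
The 53 Hist1 genes in their order along Chr 13 (horizontal axis, dashed lines between the 3 blocks), with the wild type level as FPKM + 1 on a log scale (top) and the log2 ratio of tw18/tw18 to wild type for genes at 1 FPKM or more in either (bottom), coloured by histone type. High and low genes alternate along each block, and 43 of the 46 ratios lie below 0.

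The lower level in tw18/tw18 was seen in members with and without a hairpin match in the annotated transcript, and in members on either side of 50% shared sequence. Summed over the 42 genes with a match the ratio of tw18/tw18 to wild type was 0.575, and over the 25 without one it was 0.582. Genes without a match have shorter annotated transcripts (median 411 against 620.5 bp). This split therefore cannot separate mRNAs with the hairpin from mRNAs without it. For the 36 members with under 50% shared sequence the ratio was 0.587, and for the 31 others 0.556. In tw18/+ the former had a ratio of 0.900 and the latter 0.752. Shared sequence was counted over the whole annotated transcript, which can run past the RefSeq gene, as in *Hist1h2bh* (1679 against 522 bp). Some members under 50% may therefore share more over their RefSeq length, which was not computed. Leaving out the most abundant gene, *Hist1h4d*, the ratio of tw18/tw18 to wild type was 0.573.

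Histone genes outside the clusters, many of which encode replacement variants made outside S phase, had ratios nearer to 1. Of 11 of them at 1 FPKM or more, 8 were lower in tw18/tw18 than in wild type and none was called in either direction, where 6.94% of all genes were called lower and 15.1% higher. Their median log2 ratio was -0.31 in tw18/tw18 and 0.20 in tw18/+. *H2afz*, the H2A.Z variant, had 745 FPKM in wild type, 781 in tw18/+ and 504 in tw18/tw18, a log2 ratio of -0.56 to wild type. *H3f3a* and *H3f3b* both encode H3.3, and they had 403, 464 and 325 FPKM and 255, 296 and 252 FPKM. *H2afx*, whose mRNA can also end in the hairpin, had 112, 104 and 72.1 FPKM. *H1f0*, the linker histone of cells that leave the cycle, was higher in tw18/tw18, with 25.9, 36.5 and 43.1 FPKM.

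On the deposited scale, genes that process, carry or accompany histone mRNA and histones were mostly lower in tw18/tw18 than in wild type. Their median log2 ratios to wild type were smaller in size than that of the clustered histone genes. Of 25 genes of histone mRNA 3′ end processing and decay, 23 were lower than in wild type, with a median log2 ratio of -0.31. Of all genes tested 50.4% were lower, 6.94% were called lower and 15.1% called higher. Among all genes at 10 FPKM or more 59.7% were lower, with a median of -0.12. *Slbp* itself had 78.6 FPKM in wild type, 96.4 in tw18/+ and 58.2 in tw18/tw18. The 1 gene of this list that was called, *Lsm11*, a subunit of the U7 particle that cuts histone pre-mRNA, was higher, with 0.819, 1.64 and 2.25 FPKM, and is named after its values were seen. Of 25 histone chaperones 18 were lower (median -0.43), and *Nasp*, which holds a reserve of H3 and H4, was the only one called, with 261, 255 and 130 FPKM. The summed FPKM of the chaperones in tw18/tw18 was 0.643 of wild type and 0.598 of tw18/+. For the clustered histone genes these ratios were 0.578 and 0.676, and for the 3′ end list 0.777 and 0.731. In sums against tw18/+ the chaperones were thus lower than the histone genes. *Npm1*, the abundant nucleolar chaperone, had 2468, 2782 and 1496 FPKM.

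On the deposited scale, cell cycle genes were mostly lower as well. Of 44 genes of S phase and DNA replication 40 were lower in tw18/tw18 than in wild type and none was called, with a median of -0.40. Of all genes tested 50.4% were lower, 6.94% were called lower and 15.1% called higher. Among all genes at 10 FPKM or more 59.7% were lower, with a median of -0.12. *Pcna*, the sliding clamp of DNA polymerase, had 336, 362 and 192 FPKM, and the helicase subunit *Mcm6* had 123, 121 and 67.3. Of 19 mitotic genes 17 were lower, with a median of -0.18. Scaling to equal FPKM sums raises every log2 ratio of tw18/tw18 to wild type by 0.21. That is more than the size of the mitotic median, so the direction for mitotic genes depends on the scaling. The gene lists were not counted again under that scaling. In tw18/+ against wild type the medians of these last 4 lists lay between 0.01 and 0.05, beside -0.38 for the clustered histone genes. Whether the histone genes and these lists differ from each other was not tested.

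**Figure D5:**
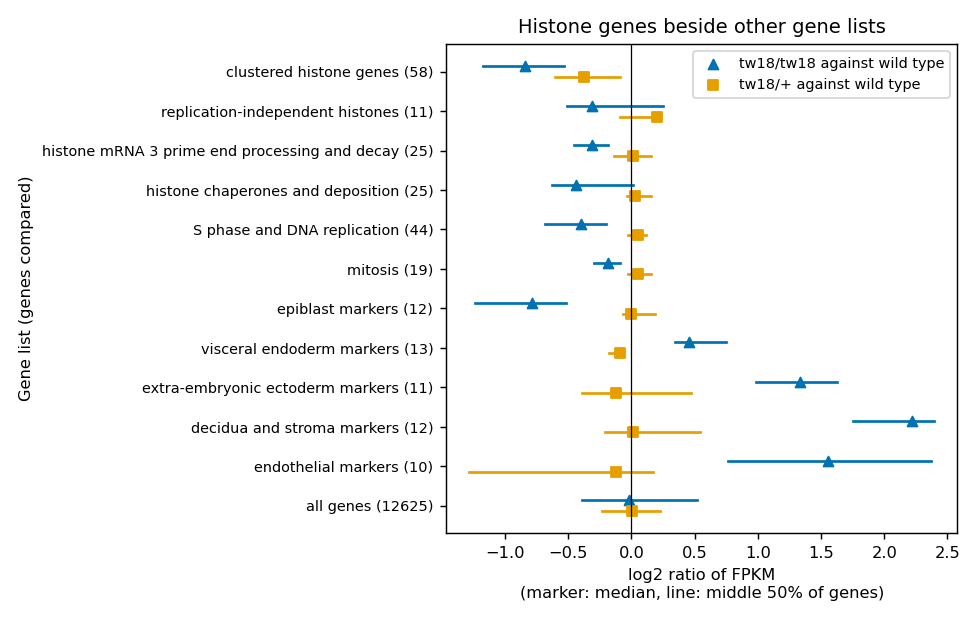
Log2 ratio of FPKM (horizontal axis) for tw18/tw18 and tw18/+ against wild type in each gene list (vertical axis, number of genes compared in tw18/tw18 against wild type in brackets); markers are medians and lines the middle 50% of genes. The clustered histone genes have a median of -0.84 in tw18/tw18 and -0.38 in tw18/+, and the marker lists of other tissues lie to the right of 0 in tw18/tw18.

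Markers of cell types moved with genotype as well, so the libraries differ in more than histone genes. For tw18/tw18 against wild type, 50.4% of all genes tested were lower, 6.94% were called lower and 15.1% called higher. All 12 epiblast markers were lower in tw18/tw18 than in wild type, 5 of them called, and their summed FPKM was 2336 in wild type, 2504 in tw18/+ and 1224 in tw18/tw18. *Pou5f1*, which defines the epiblast at this stage, had 628, 721 and 274 FPKM. Among 13 visceral endoderm markers 12 were higher and none was called, with sums of 942, 923 and 1237 FPKM. Of 11 extra-embryonic ectoderm markers at 1 FPKM or more 10 were higher, 8 of them called. The list of 12 summed to 196, 187 and 291 FPKM. The 1 lower marker, *Eomes*, which is also expressed in the epiblast, was called, with 77.1, 58.0 and 37.0 FPKM. Of 12 decidua and stroma markers 11 were called higher, and the list summed to 1655, 340.5 and 1136 FPKM. *Prl8a2*, a decidual prolactin, was called lower and held most of the wild type sum, with 1504 FPKM in wild type, 155 in tw18/+ and 377 in tw18/tw18. Of 10 endothelial markers 9 were higher and 6 called, with sums of 61.4, 47.9 and 125 FPKM. No marker of these 5 lists was listed at 0 in any library. The part of these differences in the lower histone levels of tw18/tw18 was not tested.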

How the data were processed

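Total RNA of the embryo proper was made into strand-specific libraries with random hexamers (TotalScript kit) and read as paired ends. The authors mapped reads to mm10 and deposited FPKM values calculated with Cuffdiff. Per the submitters' processing notes the tools were TopHat2, Bowtie 1.0.0, Cufflinks 2.2.1 and Cuffdiff. The gene annotation and library normalization are not given in the sources used here. If FPKM was scaled to the library total, a very abundant gene would lower all others. Which scaling was used is not known here.

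Values were computed from the deposited table in pandas 2.3.3 on Python 3.11.15, intervals in scipy 1.17.1, other arithmetic in numpy 2.4.6 and plots in matplotlib 3.10.9. Groups follow the genotype labels. Ratios are of FPKM without a pseudocount, and a call needs a log2 ratio of at least 1 in size with the higher value at 1 FPKM or more. Medians of log2 ratios leave out genes at 0. With 1 library per genotype no test was made. The arithmetic of the call was checked on simulated data with planted changes above the threshold and little noise. That check says nothing about how reliable the calls in these libraries are. Gene positions, transcripts and shared 50 bp words come from GENCODE M21, promoters from RefSeq, to which all 67 members were matched by symbol, synonym and position.

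Fragment numbers divide FPKM by the value of 1 fragment, read from steps of low values (0.0724 FPKM for a 1 kb transcript in wild type, 0.0519 in tw18/+ and 0.0522 in tw18/tw18; 75.4% to 77.9% of low values within 0.1 of a whole number). They use RefSeq gene lengths, which may not be those the authors used, so they are approximate. The 95% intervals (exact Clopper-Pearson) treat fragments as independent and cover counting error only. Libraries were amplified by PCR without molecular identifiers, so copies of a fragment can be counted and the intervals may be too narrow. Spread between samples is not in them, because each genotype has 1 library.

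Members and lists were chosen with earlier results of these data known. Named members are the 30 with the highest mean FPKM of those at 10 FPKM or more in a library, those listed at 0 in 1 library and at 1 FPKM or more in another (there were 0), and those called in the same direction in tw18/tw18 against both other libraries (8 lower, 1 higher). Named genes of other lists are at most 6 a list with the largest log2 ratio in size at 10 FPKM or more, and *Slbp*, *H2afz*, *H3f3a*, *H3f3b* and *Pcna*. Exceptions are given as such or named beside counts of 5 or fewer. Alternatives were other pseudocounts, filters, thresholds and scalings, and subsets of members.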

Additional observations from a re-analysis of the deposited data

How the results depend on the processing

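The medians and the ratios of sums kept their direction under every alternative run, and all 41 members at 10 FPKM or more stayed lower in tw18/tw18 than in wild type under the 3 scalings. Counts of calls did not always keep their balance: in tw18/+ against wild type 1 lower and 2 higher calls were left among members with under 50% shared sequence. With equal FPKM sums, members with any lower value in tw18/tw18 against tw18/+ went from 49 to 42 of 58, while all genes went from 49.7% to 34.2%. Against wild type they went from 54 to 53, and all genes from 50.4% to 36.8%. The cause of each change in size was not tested unless the alternative itself sets it. For the counts called below, the share of all genes called at the same setting is not given. They therefore cannot be set against a background. In tw18/tw18 against wild type, the 23 members called lower became 13 with libraries scaled to equal FPKM sums, 15 with equal sums without *Lars2*, 3 at a log2 threshold of 2 and 12 among the 36 members with under 50% shared sequence, a smaller set. The 2 called higher became 0 with a pseudocount of 1, with a minimum of 5 FPKM and with the threshold of 2. In tw18/+ against wild type, the 4 called lower became 2 with a minimum of 5 FPKM, 7 without a filter, 2 with the threshold of 2 and 1 with under 50% shared sequence. The 2 called higher became 1 with a pseudocount of 0.1 or 1 and under both scalings to equal sums, and 0 with a minimum of 5 FPKM and with the threshold of 2. In tw18/tw18 against tw18/+, the 9 called lower became 5 with a pseudocount of 1 and under both scalings to equal sums, and 2 with the threshold of 2. The 2 called higher became 1 with a pseudocount of 1, with the threshold of 2 and with under 50% shared sequence, 0 with a minimum of 5 FPKM and 4 without a filter. The median difference of log2(FPKM + 1) over all members, -0.66 in tw18/tw18 against wild type, was -0.77 over members at 1 FPKM or more, -0.49 with equal sums and -0.51 with equal sums without *Lars2*. Against tw18/+ it was -0.41, and -0.18, -0.21 and -0.53 with equal sums, with equal sums without *Lars2* and with under 50% shared sequence. The ratio of summed FPKM, 0.578 to wild type, was 0.669 with equal sums and 0.652 without *Lars2*, and the ratio of 0.676 to tw18/+ was 0.802 and 0.785. Equal sums move every log2 ratio of tw18/tw18 to wild type by 0.21, whereas the median log2 ratio over 11069 genes was -0.05. The settings without *Lars2*, those on shared sequence or overlapping genes and the scaled counts of any lower value were chosen after seeing the data. No paired analysis was possible because each genotype has 1 library. Depth limits members under about 1 FPKM, which rest on few fragments, and 1 library per genotype limits every comparison.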
